A study of Mus musculus with 42 samples.

Results

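Complex I genes are taken here as the genes whose symbol starts with Nduf, with symbols containing -ps, the ending of a pseudogene, left out. They number 46 of the 12988 genes in the expression table, and all 46 passed the filter on low values. By role, 36 encode subunits of complex I, 8 encode assembly factors, and 2, Ndufa4 and Ndufa4l2, carry a complex I name but belong elsewhere. The DNA methylation table holds 235 of its 141251 tiles, windows of 100 bp, within the span of these genes or 2 kb on either side. The 46 genes lie on 17 chromosomes, with 2 of them on X, so they share no locus.

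Complex I (NADH:ubiquinone oxidoreductase) is the entry point of the mitochondrial respiratory chain. It is L-shaped: a matrix arm takes electrons from NADH and passes them over iron-sulfur clusters to ubiquinone, and a membrane arm pumps protons. The core subunits carry out the chemistry, accessory subunits surround and stabilise them, and assembly factors help to build the complex and then leave it. Embryos at gastrulation grow fast and draw much of their energy from glycolysis, while respiration becomes more important as development goes on.

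Male mice received a vehicle or di(2-ethylhexyl) phthalate (DEHP), a plasticizer, at 2.5 or 25 mg per kg per day for 67 days and were then mated with females that had not been exposed. The deposited expression table holds 2 control, 2 low and 2 high libraries, and that of methylation holds 3 of each, all named for the father's dose. RNA came, per the labels, from wild type C57BL/6 * DBA/2J embryos labelled male at embryonic day 7.5, as an embryonic and an extra-embryonic part. The methylation libraries came from the same 2 parts or from sperm of wild type C57BL/6 males aged 14 weeks. Column names give the dose but not the tissue, so the tissue of both tables is not known here. The labels do not say whether libraries come from separate litters or pools, so p-values measure only the spread between these libraries. Bulk RNA cannot tell fewer cells of a type from less RNA per cell.

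Expression is given as deposited, in CPM (read counts scaled to a common total), and the relative depth of the libraries, in units of 1e6 counting steps, was 153 to 194, with the 2 high libraries lowest at 153 and 161. All 9 markers of epiblast and primitive streak and all 9 of visceral endoderm were in the expression table, beside 6 of 9 trophoblast, 5 of 7 blood and endothelial and 3 of 7 decidual markers. The summed CPM of the visceral endoderm list was 2346 and 1114 in the controls, against 1800 and 2114 in low and 1872 and 2530 in high libraries. That of the epiblast and streak list was 2253 and 2605, 2890 and 2338, and 2088 and 1778. Of its 9 genes, 7 were lower in both high libraries than in both controls, against 12.1% of all genes, and 0 were higher. In the low group 1 was higher and 0 lower. Of 9 visceral endoderm markers 3 were higher and 0 lower in each exposed group, and of 6 trophoblast markers 2 and 0. Of 5 blood and endothelial markers 2 were higher in each, with 0 lower in low and 1 in high. Of 3 decidual markers 0 were higher and 1 lower in low, and 2 and 0 in high. Over all genes 18% were higher and 17.2% lower in low, and 23.5% and 12.1% in high. Trophoblast markers summed to 106 and 67.8, 152 and 94.3, and 97.0 and 128 CPM, blood and endothelial markers to 54.1 and 42.2, 59.4 and 54.3, and 55.7 and 71.7 CPM, and decidual markers to 11.2 and 9.6, 8.7 and 9, and 16.2 and 13.4 CPM. Library means of methylation were 35.2 to 36.3%.

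The start regions of 40 of the 46 genes were found in RefSeq (GRCm38.p6), each as 250 bases before to 50 bases after the gene start, and Ndufs1, Ndufa2, Ndufb9, Ndufa4l2 and Ndufaf6 were among those with no entry. Ndufa5 and Ndufa7 have 2 starts there and are counted once. Nuclear respiratory factor 1 (NRF1) is a transcription factor known for binding CpG-rich sites at nuclear genes of the respiratory chain. Its motif, searched on both strands as GCGCA, 1 base of any kind and GCGC, was present in 9 of the 40 regions (22.5%), against 11.7% of the 9931 regions of genes tested for expression and 5.2% of all 27025 regions. All of its matches are shown, since they name the members with such a site and 4 of them lie in a methylation tile. Each line holds 30 bases on the strand of the gene, 5′ to 3′, with the motif in capitals, read backwards where it lies on the other strand.
Ndufa11, chr17:56717692-56717721, plus strand: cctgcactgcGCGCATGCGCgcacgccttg
Ndufa5, chr6:24527697-24527726, minus strand: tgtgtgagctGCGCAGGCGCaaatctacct
Ndufa6, chr15:82354249-82354278, minus strand: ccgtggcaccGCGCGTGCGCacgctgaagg
Ndufa8, chr2:36049349-36049378, minus strand: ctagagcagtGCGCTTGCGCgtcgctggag
Ndufaf4, chr4:24897960-24897989, plus strand: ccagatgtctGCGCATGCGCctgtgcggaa
Ndufaf5, chr2:140170652-140170681, plus strand: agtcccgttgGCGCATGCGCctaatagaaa
Ndufb4, chr16:37654371-37654400, minus strand: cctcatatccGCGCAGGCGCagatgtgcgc
Ndufb4, chr16:37654428-37654457, minus strand: ccttgtgcgcGCGCAGGCGCacttcctgag
Ndufb4, chr16:37654540-37654569, minus strand: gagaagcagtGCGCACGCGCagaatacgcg
Ndufs5, chr4:123718265-123718294, minus strand: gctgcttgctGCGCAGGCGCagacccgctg
Ndufs6, chr13:73328479-73328508, minus strand: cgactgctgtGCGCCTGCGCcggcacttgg

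Of these genes, Ndufb4 has 3 matches within its region, and Ndufa6 and Ndufaf5 have theirs after the start. The 4 matches that lay within a methylation tile were those of Ndufa6, Ndufa8, Ndufaf5 and Ndufs5. Their tiles read 0 to 0.833%, 5.23 to 15.1%, 0 to 1.30% and 2.79 to 6.13% over the 9 libraries, so each was mostly unmethylated in all groups.

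YY1, a zinc finger factor that binds many housekeeping promoters, was searched as AAGATGGCG on both strands, and 6 of 40 regions (15%) held it, against 3.6% of tested genes and 1.6% of all. The 6 matches are shown because all lay on the gene's own strand and just after the start, with their first base 11 to 36 bases from it. Each line holds 21 bases with the motif in capitals.
Ndufa9, chr6:126849101-126849121, minus strand: tgggagAAGATGGCGgccgcc
Ndufaf8, chr11:120098938-120098958, plus strand: gggcccAAGATGGCGgcgccc
Ndufc1, chr3:51408919-51408939, minus strand: cggaacAAGATGGCGccgtcc
Ndufs4, chr13:114388045-114388065, minus strand: tacaggAAGATGGCGgcggtc
Ndufs6, chr13:73328435-73328455, minus strand: accggcAAGATGGCGgcggtg
Ndufs7, chr10:80249467-80249487, plus strand: gaggccAAGATGGCGgcgctg

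The tiles over the Ndufa9 and Ndufc1 matches read 2.16 to 5.62% and 0 to 0.696%. A GABPA or ETS motif (CCGGAAG) was in 6 of the 40 regions (15%, against 20.3% of tested genes and 9.9% of all), and an SP1 motif (GGGCGG) in 21 (52.5%, against 70.9% and 38.2%). The median region held 20.5 CpG sites and was 59.5% GC, against 23 and 62.7% for tested genes and 8 and 53.3% for all. A gene on the other strand started within the 1000 bases upstream of the start of 12 of the 40 (30%), against 19.8% of tested genes and 12.3% of all. A match of letters is a description and shows no binding.

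No complex I gene passed the expression test in low against control, but most had slightly more RNA in the low libraries. The test was limma on log2(CPM + 1) with Benjamini-Hochberg adjustment over 12987 genes and a threshold of 0.05, and 0 of all genes (0%) and 0 of 46 members passed it. The difference was above 0 for 40 of 46 members (87%), against 51% of all genes. The median log2 difference was 0.07 (1.05-fold) over members and 0.00 over all genes, and members ranged from -0.05 to 0.23. Both low libraries lay above both controls for 28 of the 46 members (60.9%), against 18% of all genes, and below both for 0 members, against 17.2%. An unadjusted p under 0.05 was found for 3 members higher and 0 lower, against 1.9% and 2.97% of all genes.

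In high against control the differences were as small and again mostly above 0. The test called 0 members, against 1 gene of all (0.0077%). The log2 difference was above 0 for 40 of 46 members (87%), against 58.6% of all genes, with a median of 0.07 (1.05-fold) against 0.02 and a range of -0.21 to 0.21. Both high libraries lay above both controls for 20 members (43.5%), against 23.5% of all genes, and below both for 2, against 12.1%. The unadjusted p was under 0.05 for 5 members higher and 0 lower, against 3.65% and 1.64% of all genes. With columns rescaled to equal totals the members above 0 numbered 37, and after quantile normalization 36, while medians were 0.06 and 0.05.

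The summed level of the 46 genes was 1789 and 1791 CPM in the controls, against 1856 and 1902 CPM in low and 1915 and 1831 CPM in high libraries. In CPM as deposited, all 4 exposed libraries stood above both controls. The column totals were unequal, at 982921 and 1002477 in the controls, 1017434 and 997055 in low and 992914 and 984562 in high libraries. These sums were not rescaled, so the size of the gaps depends on the scaling. Within the high group, library 1 was above library 2 for 35 of 46 members, against 6494 of all 12987 genes. The median high against control difference depended on that library. It was 0.02 without high 1, when 31 members were above 0, and 0.11 without high 2, when 42 were. Over all genes the median was also 0.02 for high 2 alone, with 7463 of 12987 above the control mean. For high 1 alone it was 0.03, with 7711 above. The excess of members over all genes in the median was therefore seen in high 1 and hardly in high 2. In the low group library 2 was above library 1 for 32 members, against 6620 of all 12987 genes. The median low against control difference was 0.09 without low 1 and 0.05 without low 2. Of the values given above, relative depth and the epiblast and streak sums were lowest in the high group, and the decidual sums, of 3 genes, were highest there. Its blood and endothelial sums lay above both controls, and its visceral endoderm and trophoblast sums overlapped them. The part of cell types and of depth in these differences was not tested.

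**Figure D1:**
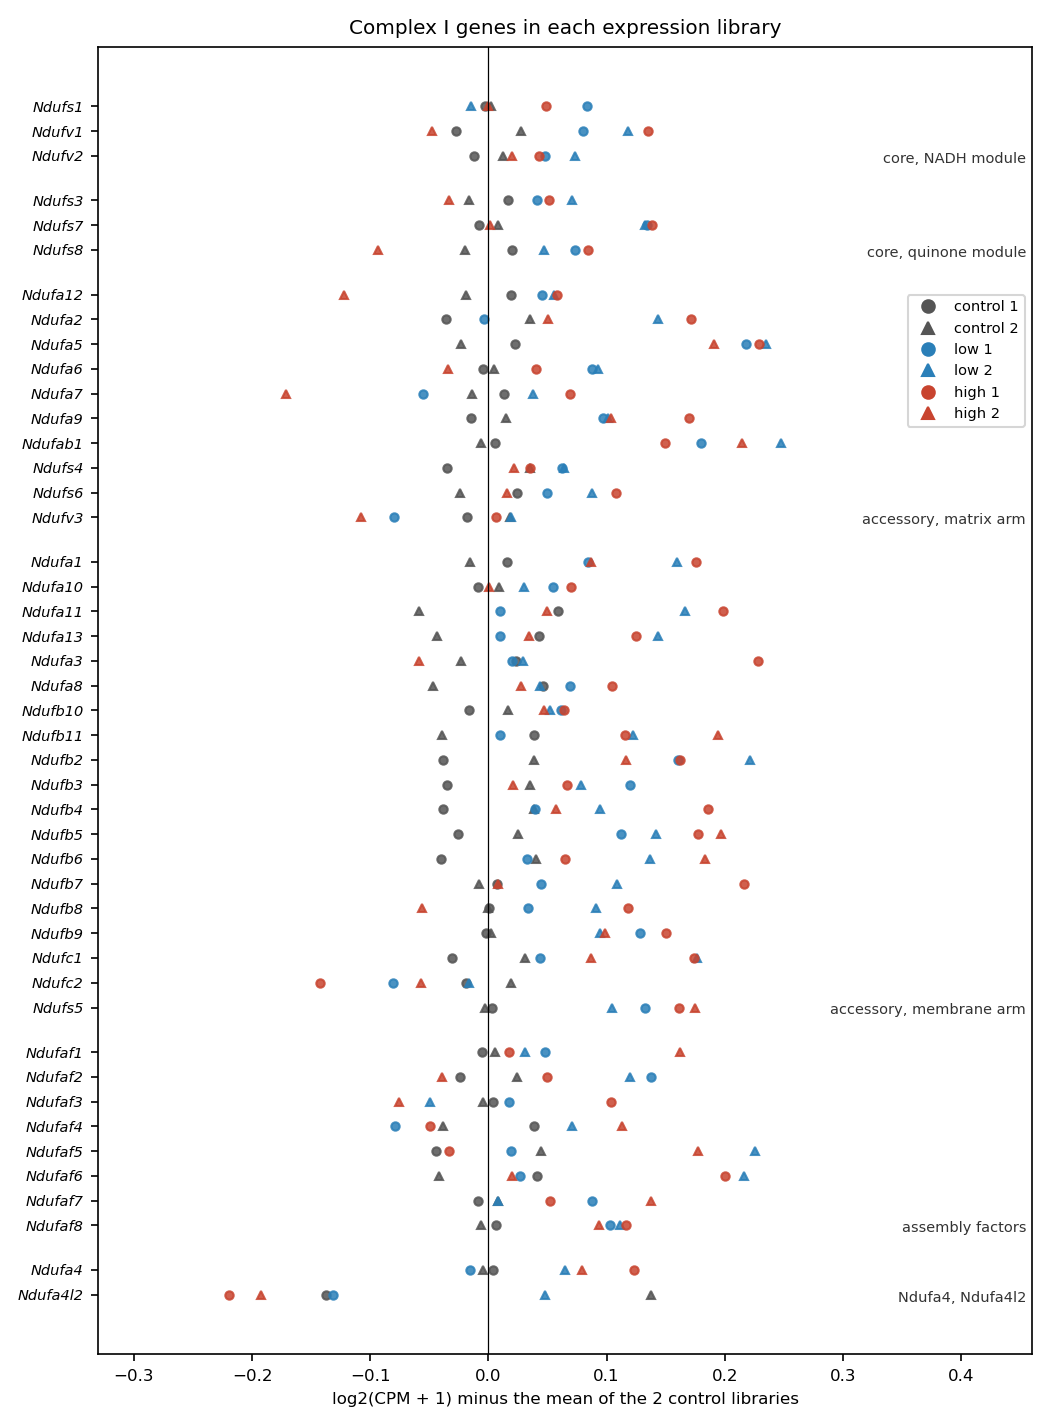
Each row is a complex I gene, grouped by role, and the x axis is log2(CPM + 1) in each of the 6 libraries minus the mean of the 2 controls (circle: library 1, triangle: library 2). Most blue (low) and red (high) points lie to the right of the line at 0, and in most rows the red circle lies to the right of the red triangle.

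The core subunits of the NADH module, where NADH is oxidised, differed little between groups. Ndufv1, which binds NADH and the flavin, was at 64.3 and 66.9 CPM in the controls, 69.4 and 71.2 CPM in the low group and 72.1 and 63.4 CPM in the high group. Both low libraries were above both controls (log2 difference 0.10, SE 0.07, adjusted p = 0.928), whereas the high libraries stood on either side of them (log2 difference 0.04, SE 0.07, adjusted p = 0.949). Ndufv2, the iron-sulfur subunit beside it, was at 77.0 and 78.4 CPM in the controls, 80.4 and 81.8 CPM in the low group and 80.1 and 78.8 CPM in the high group. No exposed library of Ndufv2 overlapped the controls, with log2 differences of 0.06 and 0.03. Ndufs1, which carries further iron-sulfur clusters, was at 96.9 and 97.3 CPM, 103 and 96.1 CPM and 100.4 and 97.1 CPM in the same order, and its groups overlapped in all 3 comparisons.

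The core subunits of the quinone module hand electrons to ubiquinone. Ndufs7, which holds the last iron-sulfur cluster, was at 34.5 and 34.9 CPM in the controls, 38.2 and 38.2 CPM in the low group and 38.3 and 34.8 CPM in the high group. Its low libraries were 1.10-fold above the controls (log2 difference 0.13, SE 0.07, adjusted p = 0.928), and of the high libraries only the first was. Ndufs3 was at 46.2 and 45.2, 47.0 and 48.0, and 47.4 and 44.6 CPM in the order control, low and high, and Ndufs8, another iron-sulfur subunit, was at 32.5 and 31.6, 33.7 and 33.1, and 34.0 and 29.96 CPM. In Ndufs7, Ndufs3 and Ndufs8 both low libraries were above both controls, and in none did the high libraries stand clear of them, with high 2 near or below the controls in each. Their high and low libraries overlapped too.

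Of the 10 accessory subunits of the matrix arm, 7 had both low libraries above both controls (18% of all genes) and 4 had both high libraries there (23.5% of all genes). The member with the smallest p in low against control was Ndufab1 (chr7:122085403-122101886), the mitochondrial acyl carrier protein, which also serves fatty acid and lipoic acid synthesis. It was at 69.3 and 68.7 CPM in the controls, 78.3 and 82.1 CPM in the low group and 76.7 and 80.3 CPM in the high group. All exposed libraries were above both controls, by 1.16-fold in the low group (log2 difference 0.21, SE 0.06, adjusted p = 0.928) and 1.14-fold in the high group (log2 difference 0.18, SE 0.06, adjusted p = 0.866). Ndufa5 (chr6:24518666-24528013), a small subunit at the quinone module, was at 21.9 and 21.2 CPM in the controls, 25.3 and 25.6 CPM in the low group and 25.5 and 24.8 CPM in the high group. It had the largest log2 difference of the 46 genes in both comparisons with the controls, 1.17-fold in the low group (log2 difference 0.23, SE 0.07, adjusted p = 0.928) and 1.16-fold in the high group (log2 difference 0.21, SE 0.07, adjusted p = 0.866). Its high and low libraries overlapped.

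Ndufa9, which sits at the junction of the arms, was at 55.7 and 56.9 CPM in the controls, 60.3 and 60.5 CPM in the low group and 63.5 and 60.6 CPM in the high group. Its 3 groups stood apart in the order control, low, high, although 1 high library was hardly above the low group (log2 difference of high against control 0.14, SE 0.06, adjusted p = 0.866). Ndufa6, which holds the acyl carrier protein in place, was at 34.3 and 34.6 CPM in the controls, 36.7 and 36.8 CPM in the low group and 35.5 and 33.6 CPM in the high group. It stood above the controls in the low group alone, and its high libraries were below both low libraries (log2 difference -0.09, SE 0.06, adjusted p = 0.934), a difference of -0.05 without high 2. Ndufs4, Ndufs6 and Ndufa12 had low libraries above both controls with log2 differences of 0.06, 0.07 and 0.05, and high libraries that overlapped the controls. Ndufa12 is uncertain, since a pseudogene copy listed at 5.12 to 6.03 CPM could take or give reads. Ndufa2 had only its high libraries above both controls, Ndufs4 also had its high libraries below both low libraries, and Ndufa7 and Ndufv3 overlapped in all 3 comparisons.

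**Figure D2:**
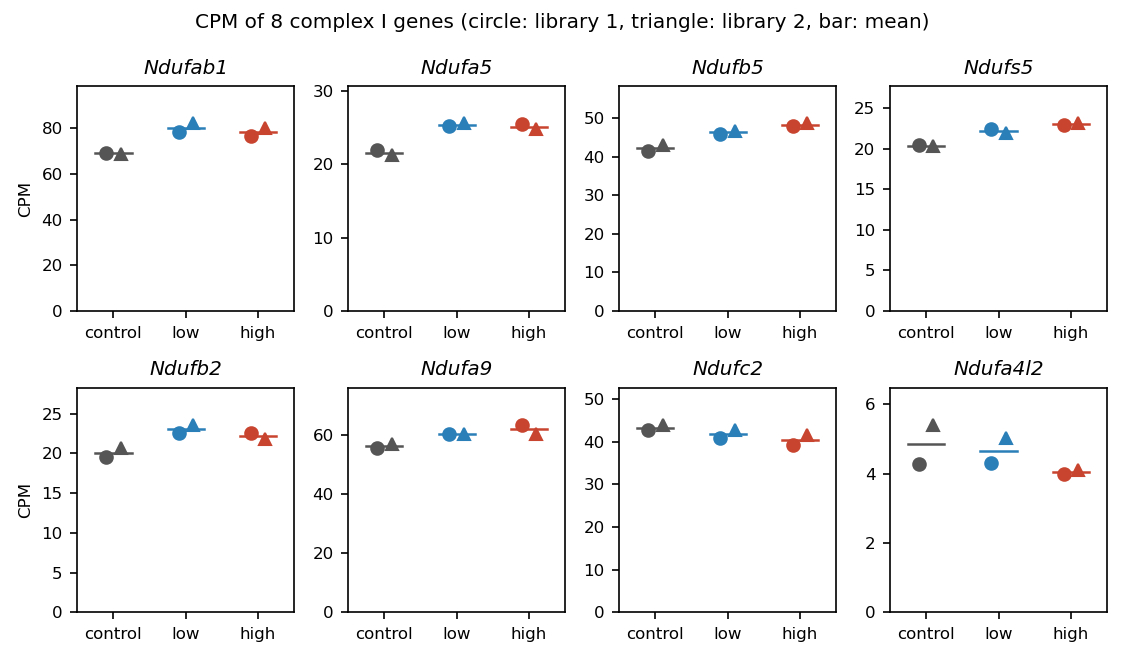
CPM of 8 complex I genes in each library, with the y axis from 0 (circle: library 1, triangle: library 2, bar: group mean). In the panels of Ndufab1, Ndufa5, Ndufb5, Ndufs5, Ndufb2 and Ndufa9 all 4 exposed libraries lie above both controls, and in those of Ndufc2 and Ndufa4l2 both high libraries lie below them.

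The 19 accessory subunits of the membrane arm had a median log2 difference from the controls of 0.12 (1.09-fold) in the high group and 0.08 (1.05-fold) in the low group. The high value was 0.15 in high 1 alone and 0.05 in high 2 alone. Both high libraries were above both controls for 11 of the 19 and below them for 1, against 23.5% and 12.1% of all genes, and both low libraries were above for 12, against 18%. Ndufb5 (chr3:32736990-32751566), whose span overlaps Mrpl47, was at 41.6 and 43.1 CPM in the controls, 45.8 and 46.8 CPM in the low group and 48.0 and 48.7 CPM in the high group. Its 3 groups did not overlap and stood in the order of dose, and it had the smallest p of the members in high against control (1.14-fold, log2 difference 0.19, SE 0.06, adjusted p = 0.866). Ndufs5 (chr4:123712710-123718202), on the side of the intermembrane space, was at 20.4 and 20.3 CPM in the controls, 22.4 and 22.0 CPM in the low group and 22.9 and 23.1 CPM in the high group. Its groups also stood in the order of dose, with high libraries 1.12-fold above the controls (log2 difference 0.17, SE 0.07, adjusted p = 0.866) and low libraries 1.09-fold above them. The direct comparison of high with low gave log2 differences of 0.06, SE 0.06, adjusted p = 0.997 for Ndufb5 and 0.05, SE 0.07, adjusted p = 1 for Ndufs5.

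Ndufb2 was at 19.5 and 20.7 CPM in the controls, 22.6 and 23.6 CPM in the low group and 22.6 and 21.9 CPM in the high group. Both exposed groups stood clear of the controls and overlapped each other, with the larger difference in the low group (1.14-fold, log2 difference 0.19, SE 0.07, adjusted p = 0.928). Ndufb3 was at 25.3 and 26.6 CPM in the controls, 28.3 and 27.4 CPM in the low group and 27.2 and 26.3 CPM in the high group, and only its low libraries stood clear of the controls. Ndufa1, Ndufb4, Ndufb7, Ndufb9, Ndufb10 and Ndufc1 had all exposed libraries above both controls, with log2 differences between 0.06 (Ndufb10) and 0.12 (Ndufa1) in the low group and between 0.06 (Ndufb10) and 0.13 (Ndufa1) in the high group. For Ndufb4 and Ndufb7 1 exposed library was hardly above the higher control. Ndufa10 and Ndufb8 stood above the controls in the low group alone (log2 differences 0.04 and 0.06), and Ndufb6 and Ndufb11 in the high group alone (0.12 and 0.15). Ndufa3, Ndufa8, Ndufa11 and Ndufa13 overlapped the controls in both.

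Ndufc2 (chr7:97400003-97407802) was the only complex I subunit whose high libraries were below both controls. It was at 42.7 and 43.9 CPM in the controls, 40.9 and 42.8 CPM in the low group and 39.2 and 41.6 CPM in the high group. The high libraries were 0.93 times the controls (log2 difference -0.10, SE 0.06, adjusted p = 0.866), and the low libraries overlapped both groups. Without high 1 the log2 difference was -0.06.

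Of the members with the smallest p in high against control, Ndufab1 and Ndufs5 have a stretch before the start that lies in no gene span of the expression table and reaches into a methylation tile, and 200 bases of each are shown so that they can be compared. Capitals mark a motif of those searched.
Ndufab1, chr7:122101887-122102086, minus strand: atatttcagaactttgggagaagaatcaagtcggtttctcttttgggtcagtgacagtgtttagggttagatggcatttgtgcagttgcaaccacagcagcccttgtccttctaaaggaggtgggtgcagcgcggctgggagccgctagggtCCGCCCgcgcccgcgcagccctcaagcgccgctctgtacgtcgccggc
Ndufs5, chr4:123718203-123718402, minus strand: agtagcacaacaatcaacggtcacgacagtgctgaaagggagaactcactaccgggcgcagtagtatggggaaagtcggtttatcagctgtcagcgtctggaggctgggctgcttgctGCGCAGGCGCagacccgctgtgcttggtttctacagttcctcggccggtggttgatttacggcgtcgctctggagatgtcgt

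The 2 stretches had no searched motif in common. That of Ndufab1, -238 to -39 from the start, held 1 SP1 match on the other strand, and that of Ndufs5, -216 to -17, held the NRF1 match given above. At Ndufs5 the tiles chr4:123718201-123718300 and chr4:123718301-123718400 within the printed stretch read 2.79 to 6.13% and 0 to 1.62% over the 9 libraries. At Ndufab1 the tile chr7:122101801-122101900, which reaches into the printed stretch, read 0.109 to 1.001% over them. No tile of Ndufb5 lay at its start, and its 1 tile, behind the gene, read 84.8 to 97.5%.

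Assembly factors put the arms together, each at its own stage. Of the 8, 3 had both low libraries above both controls and 3 had both high libraries there, against 18% and 23.5% of all genes, with median log2 differences of 0.08 in each comparison. Ndufaf2, which acts late in the building of the matrix arm and is related to Ndufa12, was at 14.2 and 14.8 CPM in the controls, 16.1 and 15.8 CPM in the low group and 15.04 and 14.1 CPM in the high group. It was above the controls in the low group alone (log2 difference 0.13, SE 0.08, adjusted p = 0.928), and its high libraries were below both low libraries (log2 difference -0.12, SE 0.08, adjusted p = 0.873), a difference of -0.08 without high 2. Ndufaf1, which helps to build the membrane arm, was at 16.9 and 17.0, 17.6 and 17.3, and 17.2 and 19.1 CPM in the order control, low and high. Ndufaf8, the partner of the hydroxylase Ndufaf5, was at 6.84 and 6.77, 7.38 and 7.43, and 7.46 and 7.33 CPM in the same order. Both stood above the controls in both exposed groups, as Ndufaf7, a methyltransferase, did in the high group alone (log2 difference 0.09, SE 0.08, adjusted p = 0.874). Ndufaf3, Ndufaf4, Ndufaf5 and Ndufaf6 overlapped in all 3 comparisons.

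Ndufa4 and Ndufa4l2 lay on opposite sides of the controls in the high group. Ndufa4, now counted with cytochrome c oxidase (complex IV), was at 93.3 and 92.7 CPM in the controls, 92.0 and 97.3 CPM in the low group and 101 and 98.3 CPM in the high group. Its high libraries were above all other libraries (log2 difference against control 0.10, SE 0.06, adjusted p = 0.866). Ndufa4l2 (chr10:127514967-127517154), its hypoxia-induced relative, was at 4.29 and 5.40 CPM in the controls, 4.31 and 5.01 CPM in the low group and 3.996 and 4.09 CPM in the high group. Its high libraries were below all other libraries (0.87 times the controls, log2 difference -0.21, SE 0.12, adjusted p = 0.866). The log2 difference was -0.34 without control 1 and -0.07 without control 2. It also had the widest spread of the 46 genes within a group, as its controls differed 1.26-fold.

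Set directly against each other, high and low differed little, and the direction depended on the library left out. The test called 0 of 46 members and 0% of all genes. The log2 difference was above 0 for 20 of 46 (43.5%), against 57.5% of all genes, and its median was -0.01 against 0.01. After quantile normalization 14 members were above 0 and 32 below. Without high 1 the members above 0 numbered 11, with a median of -0.04, and without high 2 they numbered 32, with 0.03. High libraries stood above both low libraries for 4 members, Ndufa9, Ndufb5, Ndufs5 and Ndufa4, which is 8.7% against 21.8% of all genes. They stood below both for 6, Ndufv2, Ndufa6, Ndufs4, Ndufb3, Ndufaf2 and Ndufa4l2, which is 13% against 11.8%. Unadjusted p-values under 0.05 were found for 0 members, against 5.69% of all genes higher and 2.22% lower.

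Spans of 14 members overlap another gene of the table, so reads could be shared with it where counting did not use strand, which is not given in the sources used here. Among them are Ndufs1 (Eef1b2), Ndufs3 (Kbtbd4), Ndufs6 (Mrpl36), Ndufb2 (Braf), Ndufb5 (Mrpl47), Ndufaf2 (Smim15) and Ndufa4l2 (Shmt2). Of the members with the largest differences, Ndufab1, Ndufa5, Ndufs5 and Ndufa9 overlap none. Transcript lengths were not used, so levels are not compared between genes.

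Genes of complex I work without the prefix were measured for 10 of 19 on the list. The subunits encoded in mitochondrial DNA were on it but were not found among the tested genes under the symbols searched. Of the 10, 8 had log2 differences above 0 in low against control (51% of all genes) and 9 in high against control (58.6% of all genes), with medians of 0.04 and 0.06 and none past the test. Both high libraries stood above both controls for 5 of them, against 23.5% of all genes, and both low libraries for 3, against 18%. The smallest p against the controls was that of Acad9, an assembly factor that works with Ndufaf1, in high against control at 40.3 and 39.1 CPM in the controls and 44.1 and 42.3 CPM in the high group, with 40.8 and 40.2 CPM in the low group (log2 difference 0.12, SE 0.06, adjusted p = 0.866). Lyrm2, which serves the NADH module, was at 6.26 and 5.97 CPM, 5.67 and 6.20 CPM, and 6.77 and 7.50 CPM in the order control, low and high. Its high libraries were above the rest (log2 difference against low 0.23, SE 0.10, adjusted p = 0.629).

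For comparison, the other respiratory complexes were counted the same way. Of 45 listed genes of complexes II to V, 41 were above 0 in low against control (51% of all genes) with a median log2 difference of 0.07, and 42 in high against control (58.6% of all genes) with a median of 0.08. Both low libraries stood above both controls for 33 of them, against 18% of all genes, and both high libraries for 25, against 23.5%. The gene furthest below 0 in each was Atp5pb-ps, a pseudogene that its symbol's start brought onto the list (-0.26 in each). In the high group, library 1 was above library 2 for 32 of the 45. The 10 measured regulators of mitochondrial genes, among them Nrf1, Gabpa, Tfam and Yy1, had medians of 0.01 and -0.01, with 5 and 3 above 0, against 51% and 58.6% of all genes. Tfam, which packages mitochondrial DNA and is named after its values were seen, was at 81.7 and 84.0 CPM in the controls, 87.6 and 85.3 CPM in the low group and 86.0 and 88.2 CPM in the high group. Its exposed libraries all stood above both controls, as did those of 9.1% of all genes. Of the 10 regulators, 1 had both low libraries above both controls and 1 below, against 18% and 17.2% of all genes. The 1 below was Nrf1, with 54.2 and 54.5 CPM in the low group against 55.8 and 55.5 CPM in the controls. Its high libraries, at 58.2 and 52.8 CPM, lay on either side of the controls.

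**Figure D3:**
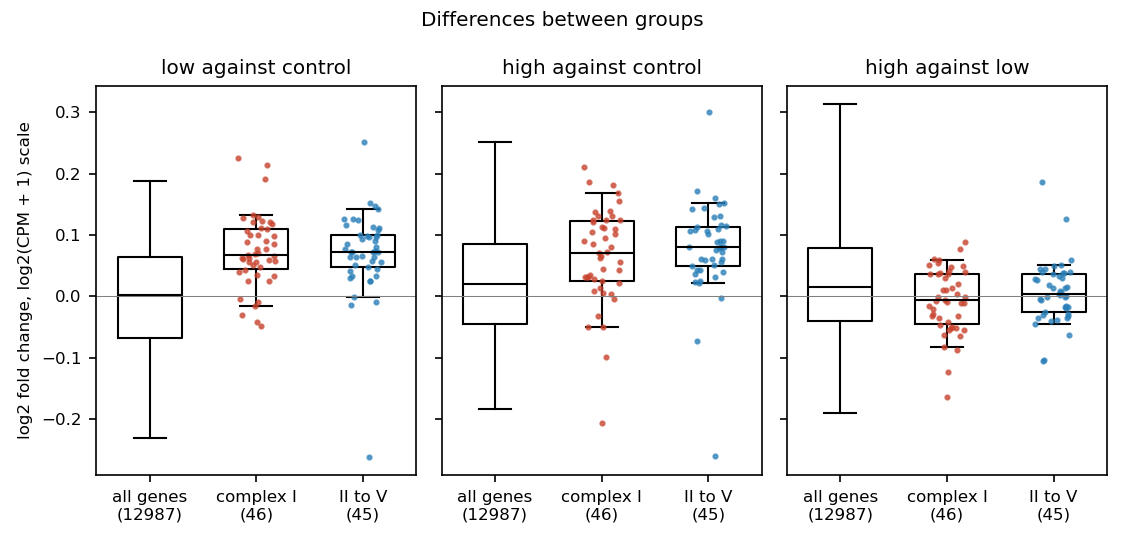
Log2 differences on the log2(CPM + 1) scale for all 12987 genes, the 46 complex I genes and the 45 genes of complexes II to V in the 3 comparisons (points: genes, box: quartiles with the median, whiskers: the 5th to 95th percentile). The complex I medians of 0.07 and 0.07 against control lie above those of all genes at 0.00 and 0.02, and in high against low the medians are -0.01 and 0.01.

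DNA methylation was measured in 235 tiles at 42 of the 46 genes, and Ndufa5, Ndufa7, Ndufs7 and Ndufaf8 had none. Reduced representation bisulfite sequencing reads mainly CpG-rich fragments, so starts of genes are well covered. Another gene's window held 112 of the 235 tiles as well, and none lay in the windows of 2 members. The median tile was at 5.21% methylation, against 20.5% over all tiles, and 151 tiles were under 10%, 53 from 10 to 50% and 31 at 50% or more. Within 500 bases of a RefSeq start lay 132 tiles of 35 genes, with a median of 2.80% and none at 50% or more. All 42022 tiles so placed had a median of 4.20%, and 3.1% of them were at 50% or more. The 28 tiles inside genes but away from the start had a median of 27.4%, and 12 of them were at 50% or more.

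**Figure D4:**
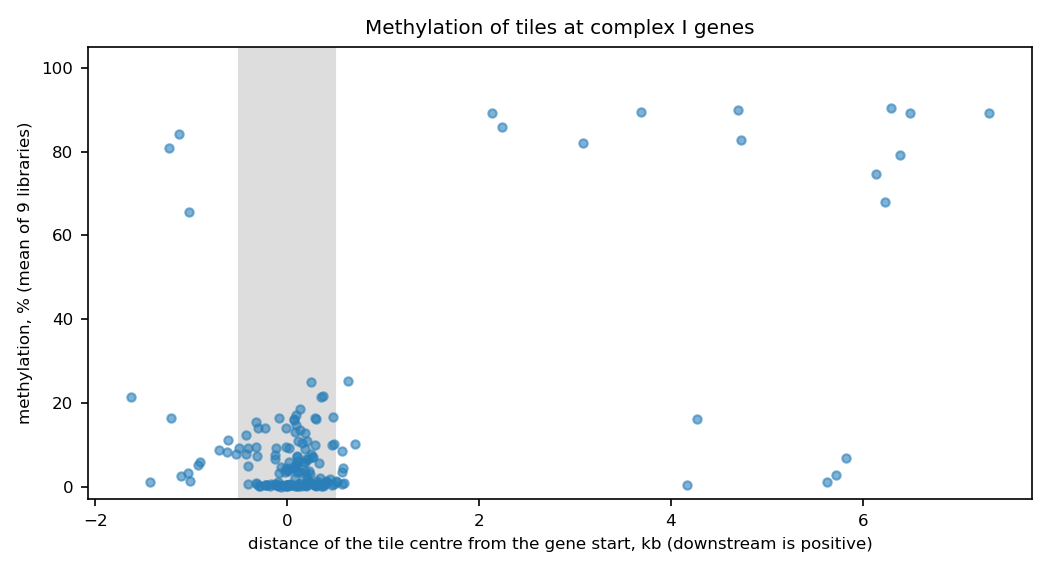
Mean methylation over 9 libraries of 174 tiles at complex I genes, against the distance of the tile centre from the gene start in kb (grey: within 500 bases of the start). Tiles in the grey band all lie under 50%, and tiles at 50% or more lie outside it, before or behind; 21 tiles beyond the axis and 40 of 6 genes whose start was not matched are not drawn, 8 of those 40 at 50% or more.

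No tile of a complex I gene passed the methylation test in any comparison. The test was limma on percent methylation over 141251 tiles, which called 0% of all tiles in each comparison. Low libraries were all above the controls in 9 of 235 tiles (3.83%), against 5.26% of all tiles, and all below in 12 (5.11%), against 4.27%. High libraries were all above the controls in 18 tiles (7.66%), against 5.16%, and all below in 7 (2.98%), against 4.07%. In high against low the counts were 17 above (7.23%), against 4.8%, and 8 below (3.4%), against 4.76%. Unadjusted p-values under 0.05 were found in low against control for 3 tiles higher and 6 lower, against 3.26% and 2.23% of all tiles, which is 1.28% and 2.55% of the 235. In high against control they were found for 5 and 1, against 2.64% and 1.8%, and in high against low for 10 and 3, against 2.39% and 2.32%. Median differences over the 235 tiles were -0.0784, 0.0187 and 0.147 percentage points in the 3 comparisons. With 1 library left out they ran from -0.116 (without control 1) to 0.0699 (without control 3), from -0.0389 (without control 1) to 0.147 (without control 3) and from 0.0999 (without low 1) to 0.328 (without low 3), so the first 2 crossed 0.

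The tile with the smallest p in low against control lay in Ndufs6, a matrix arm subunit, near the start at chr13:73328301-73328400 (tile coordinates as in the table, read as GRCm38). It read 21.6, 21.3 and 20.6% in the controls, 13.03, 15.2 and 13.6% in the low libraries and 18.8, 20.2 and 21.5% in the high libraries. The low libraries were below all others (-7.24 percentage points, SE 0.925, adjusted p = 0.46), and the high libraries overlapped the controls. The neighbouring tile chr13:73328201-73328300 read 1.93% or less in all 9 libraries. Ndufs6 RNA was at 40.9 and 39.6, 41.7 and 42.8, and 43.5 and 40.7 CPM in the order control, low and high. The window of Mrpl36 holds the tile too.

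At Ndufaf2 the tile chr13:108158901-108159000, before the start and also in the window of Ercc8, read 10.4, 12.2 and 12.9% in the controls, 5.05, 2.47 and 3.83% in the low libraries and 13.9, 11.2 and 12.1% in the high libraries. Again the low libraries were below all others, against the controls (-8.05 percentage points, SE 1.11, adjusted p = 0.487) and against the high group (8.61 percentage points, SE 1.11, adjusted p = 0.753 for high minus low). A second Ndufaf2 tile, chr13:108158201-108158300, read 17.6, 19.3 and 21.8% in the controls, 22.0, 21.1 and 20.3% in the low libraries and 24.7, 23.3 and 24.7% in the high libraries. There the high libraries were above all others (4.67 percentage points, SE 1.15, adjusted p = 0.985). The RNA of Ndufaf2 given above was highest in the low group, with an adjusted p of 0.928 against the controls in the limma test. The 2 tables may come from different tissues, and a link between them was not tested.

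Within Ndufa10, a membrane arm subunit, the tile chr1:92451901-92452000 lies far from the start and in no other gene's window. It read 91.3, 90.0 and 89.1% in the controls, 81.0, 82.9 and 82.6% in the low libraries and 81.8, 83.2 and 85.9% in the high libraries. Both exposed groups were below all controls, the low group (-7.98 percentage points, SE 1.21, adjusted p = 0.558) as well as the high group (-6.52 percentage points, SE 1.21, adjusted p = 0.936), and they overlapped each other. Ndufa10 RNA was at 69.9 and 70.8, 73.1 and 71.8, and 73.8 and 70.3 CPM in the order control, low and high.

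Tiles with the smallest p among those higher in the low group lay beside Ndufs3 and Ndufs1. At chr2:90905901-90906000, before Ndufs3 and in the window of Kbtbd4, methylation was 63.8, 78.1 and 78.7% in the controls, 90.9, 87.5 and 86.8% in the low libraries and 80.6, 81.1 and 80.0% in the high libraries. The low libraries were above all others (14.9 percentage points, SE 3.79, adjusted p = 0.759), and control 1 was far below the other 2 controls. At chr1:63177101-63177200, beside Ndufs1 and in the window of Eef1b2, it was 9.97, 12.1 and 9.28% in the controls, 15.2, 12.8 and 14.4% in the low libraries and 14.2, 10.4 and 13.5% in the high libraries, with the low libraries above the controls (3.69 percentage points, SE 1.28, adjusted p = 0.878). The next tile but 1, chr1:63177301-63177400, read 25.5, 30.4 and 31.6%, 39.0, 30.2 and 20.4%, and 16.7, 23.3 and 16.0% in the order control, low and high. There the high libraries were below all controls (-10.5 percentage points, SE 4.62, adjusted p = 1), and the low libraries spread on both sides of the controls.

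Behind Ndufs8 the tile chr19:3907001-3907100, also in the window of Tcirg1, read 1.04, 2.33 and 0.8% in the controls, 2.09, 2.43 and 2.02% in the low libraries and 3.52, 5.46 and 4.81% in the high libraries. The high libraries were above all others (3.21 percentage points, SE 0.756, adjusted p = 0.985), all at low levels. Inside Ndufs5 the tile chr4:123715901-123716000 read 83.4, 86.9 and 87.8%, 87.2, 86.9 and 89.1%, and 82.2, 84.0 and 85.8% in that order, and the high libraries were below the low libraries (-3.69 percentage points, SE 1.46, adjusted p = 1) but overlapped the controls. The files give no coverage per tile, so the depth behind a single percentage is unknown.

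**Figure D5:**
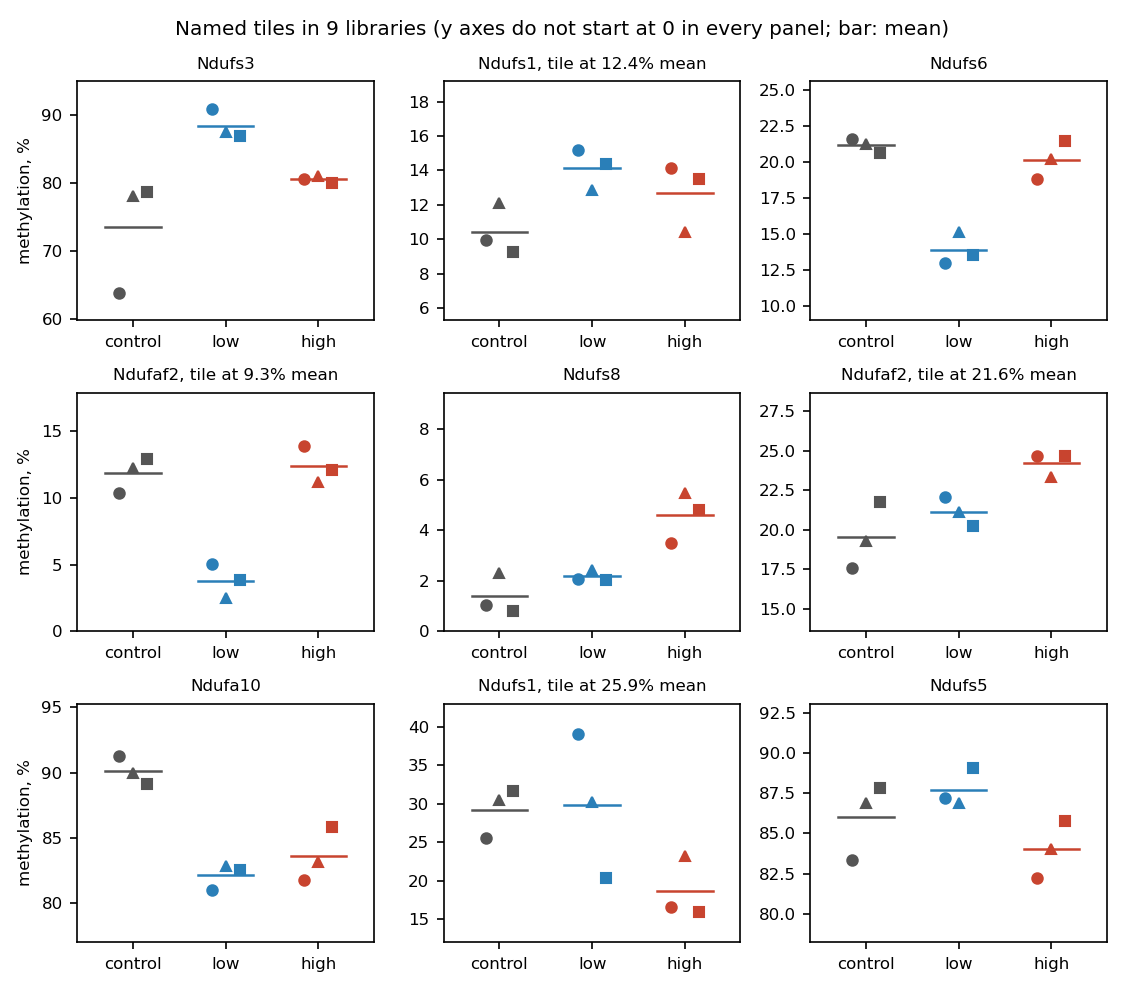
Methylation in percent of the 9 named tiles in each of the 9 libraries (circle, triangle and square: libraries 1 to 3, bar: group mean, y axes cut to the data). The low points lie below all others in the panels of Ndufs6 and of the Ndufaf2 tile with a mean of 9.34%, and above all others in that of Ndufs3.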

How the data were processed

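RNA and DNA methylation were measured in libraries named for the father's dose. Per the labels, wild type mice and standard Illumina libraries were used. Expression values are CPM (read counts scaled to a common total) deposited by the authors. The methylation table gives percent methylation per 100 bp tile, deposited by the authors without coverage. The submitters' processing notes name, with no role or order, Bismark, Bowtie2 and Trim Galore, edgeR and methylKit, SAMtools, TopHat and Bowtie 0.12.2, and the builds mm8 and mm10. Gene coordinates of all 46 members matched RefSeq GRCm38.p6 within 500 bases at an end, and tile coordinates were read on that build, since tiles at its gene starts were the least methylated.

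CPM columns summed to between 982921 and 1017434, lines without a gene included, which took 27.9 to 29.8%. Values are whole multiples of 1 step per library within 0.01, but the authors' scaling is not known, so no count model was fitted and the design's edgeR test gave way to limma (3.58.1, R 4.3.3). It was fitted to log2(CPM + 1), allowing the variance a trend over the mean. Such differences understate changes of low genes. Genes with at least 1 CPM in 2 libraries were kept (12987 of 12988). The 3 groups stood in 1 fit with the 6 libraries, and 2 libraries a group limit the precision. For methylation, limma was fitted to the percent values of 9 libraries with no such trend. Both were adjusted over all features by Benjamini-Hochberg at 0.05, and both scripts were tested on simulated data.

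The members and lists were chosen with earlier results of these data known. Full values are given for the 4 members per direction and comparison with the smallest p among those without overlap, for core subunits, Ndufa4, Ndufa4l2 and the member with the widest spread, and for the 2 tiles per direction and comparison with the smallest p. Outside this rule, full values are also given for Ndufs6, Ndufa10, Ndufaf1, Ndufaf8, Acad9, Lyrm2, Tfam and Nrf1. Other genes are named without full values. Alternatives were a pseudocount of 0.1, a mean CPM of at least 5, other scalings, no trend, a replicate block, windows of 5 kb and each library left out. An item that is part of the counts over members is not reported by name here.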

Additional observations from a re-analysis of the deposited data

How the results depend on the processing

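No complex I gene and no tile at one passed the test under any alternative run. Of 406 recomputed differences of named genes and tiles, none reversed and none passed. Counts over all genes or tiles moved. In low against control the count of genes went from 0 to between 0 and 65 with 1 library left out, and that of tiles to 1 on the logit scale, 1 with a trend, and 0 to 1 with a library left out. In high against control genes went from 1 to 0 without a trend, 2 with only the groups compared, 0 with the replicate block and 0 to 2 with a library left out, and tiles from 0 to 2 with a trend and 0 to 1 with a library left out. In high against low genes went from 0 to 9 with only the groups compared and 0 to 291 with a library left out, and tiles to 1 on the logit scale and 2 with a trend, with 0 when a library was left out. The cause was not tested. Without 1 library an expression group holds a single one, which is assumed to vary like the others, and a methylation group holds 2. Over members the median log2 difference of high against control ran from 0.0244 (without high 1) to 0.106 (without high 2). The median methylation difference ran from -0.116 to 0.0699 in low against control, from -0.0389 to 0.147 in high against control and from 0.0999 to 0.328 in high against low. Deviations from group means correlated weakly between libraries of different groups (from -0.0727 to 0.0896 for expression and -0.0329 to 0.0286 for methylation). With 2 expression libraries a group the 2 deviations mirror each other. Such correlations cannot decide whether library numbers pair the libraries. The replicate block changed no member's call. A count test and a coverage minimum were not run, since the tables hold neither counts nor coverage.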
